A study of Mus musculus with 33 samples.

Results

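The RNA of mouse cerebellum lacking a pair of the genes that make the microRNA miR-7 was compared with that of wild-type cerebellum in one experiment of the series, called experiment 1B. The comparison takes in the 8 libraries whose labels give that experiment, that tissue and one of those genotypes, of 33 libraries in all. The 4 Mir7DKO libraries came from mice with constitutive loss of Mir7a1 and Mir7b (Mir7a1-/-; Mir7b-/-), and the 4 WT libraries from wild-type mice prepared for the same experiment. All 8 mice were male C57Bl/6J mice aged 1 month, and each library was made from polyA-selected RNA of frozen cerebellum as 1 biological replicate. The labels give no treatment and no other allele. Also used are 3 Mir7DKO and 4 WT cerebella of a later-numbered experiment, experiment 2, and 4 CyrKO (Cyrano knockout) cerebella of experiment 1B, all from mice of the same strain, sex and age. The genotype leaves the remaining miR-7a gene, Mir7a2 (Mir7-2 in the annotation), unnamed, and the deletions act in every cell type of the body. The deposited table holds 38393 genes, of which 14031 had enough counts to be tested. Levels are CPM, counts per 1000000 counted reads on library sizes scaled by the trimmed mean of M values, and a log2 change is Mir7DKO over WT.

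MicroRNAs are short RNAs that guide Argonaute proteins to messenger RNAs, mostly through pairing of the seed, the bases near the 5′ end of the microRNA, to sites in 3′ untranslated regions, and targets usually rise when their microRNA is lost. miR-7 is abundant in neurons and neuroendocrine cells. In the brain it belongs to a network of noncoding RNAs: the long noncoding RNA Cyrano pairs with miR-7 almost throughout its length and directs its destruction, and the circular RNA Cdr1as carries many miR-7 sites.

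Both mature forms share 1 seed, and they are shown because the deleted genes encode them (from RefSeq, GRCm38.p6). Capitals mark bases 2 to 8, the seed, counted from the 5′ end.
mmu-miR-7a-5p: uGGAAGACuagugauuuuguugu
mmu-miR-7b-5p: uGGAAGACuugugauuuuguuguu
The first is 23 bases long and is made by Mir7a1 (Mir7-1 in the annotation) and Mir7-2, the second is 24 bases long and is made by Mir7b, and up to base 23 they differ by A10U. Sites were matched on the sense strand to the seed: an 8mer is GTCTTCCA, a 7mer-m8 is GTCTTCC without that last A, a 7mer-A1 is TCTTCCA without that first G, and a 6mer is TCTTCC with neither.

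The Cyrano site known for its long pairing is shown with 3 3′ UTR sites of genes described further down. Each window is 30 bases of the sense strand of GRCm38, with the 8mer in capitals.
Cyrano chr2:119602133-119602162 (+): aagaacaacaaaatcaccaatGTCTTCCAt
Snhg11 chr2:158385243-158385272 (+): tcgaggcgaggttatgcttatGTCTTCCAg
Gjc1 chr11:102799742-102799771 (-): gttgcagaactttcaggttgtGTCTTCCAg
Ddit4 chr10:59949779-59949808 (-): tcccagaggagtgccacctggGTCTTCCAt
Upstream of the 8mer, the Cyrano window holds an unbroken run of 13 bases complementary to bases 11 to 23 of miR-7a and of 14 bases complementary to bases 11 to 24 of miR-7b. The longest such run to miR-7a is 3 bases in the windows of Gjc1 and Ddit4 and 2 in that of Snhg11. Sites not shown can have longer runs, for example 7 bases at a 7mer-m8 of Snhg11.

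The libraries held 9577468 to 14916351 counted reads in Mir7DKO and 9480250 to 13775928 in WT. In WT library 1 the 13158788 counts exceed the 12696442 reads that its label states, and the other 7 libraries hold 64.8% to 97.4% of the stated number, so the library numbers could not be checked against the labels. Markers of Purkinje cells and granule cells were abundant in every library, as in cerebellum, with summed levels of 10319 to 11541 CPM in Mir7DKO and 10753 to 11403 CPM in WT for 16 Purkinje cell genes. Mir7DKO library 4 and WT library 4 stood apart from the other 6 on the first principal component, which held 24.7% of the variance. Among the genes with the largest loadings on it were haemoglobins, which were high in WT library 4 and not in Mir7DKO library 4, and the clock gene Dbp, which was highest in these 2 libraries. Results that rest on these libraries are also given without both of them.

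The microRNA genes themselves drew few reads; mature microRNAs and their hairpin precursors carry no polyA tail. Mir7b drew 2, 3, 7 and 5 reads in Mir7DKO libraries 1 to 4, against 0 in each WT library. All 4 Mir7DKO libraries thus had reads at the deleted gene and no WT library had any. The mean level was 0.332 ± 0.150 CPM in Mir7DKO and 0 in WT (SD, n = 4 each), where a count of 0 in all 4 libraries allows up to 0.0652 CPM. An exact two-sided permutation test over the 8 libraries gave p = 0.0286, the smallest that it can give. The 3 Mir7DKO libraries of experiment 2 of the series, made from other cerebella, held 8, 3 and 1 Mir7b reads, against 0 in each of its 4 WT libraries. Mir7-1 had 0, 4, 4 and 3 reads in Mir7DKO and 4, 4, 0 and 1 in WT, which overlap (exact permutation p = 1), and Mir7-2 had 0 in all 8. These reads do not measure mature miR-7, so the loss of the microRNA was not checked here.

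Few transcripts passed the adjusted threshold for a difference in level between the genotypes. By edgeR's quasi-likelihood test with Benjamini-Hochberg adjustment at 0.05, 1 of 14031 genes was higher in Mir7DKO (0.00713%) and 0 were lower. The higher one was Pisd-ps1, a transcribed pseudogene of the phosphatidylserine decarboxylase gene Pisd. At an unadjusted p under 0.05 there were 289 higher genes (2.06%) and 227 lower genes (1.62%). When no gene differs, a share of about 0.05 passes this level. Both directions together were under that share, so these genes are no excess over it. DESeq2 called 3 higher genes (0.013% of 23103) and 0 lower ones, and the authors' deposited table likewise has 3, all higher: Pisd-ps1, Pisd-ps2 and the complement inhibitor gene Cd59a. The median log2 change of all genes was 0.00, with 50.3% of genes above 0. The levels of the 2 groups did not overlap for 198 genes with Mir7DKO higher (1.41%) and for 159 with Mir7DKO lower (1.13%). If the 8 libraries were exchangeable, 1 of the 70 splits into 4 and 4 would separate them so in a given direction. Neither share exceeds that, so a lack of overlap in a single gene does not by itself mark a difference. The biological coefficient of variation was 9.79%.

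**Figure D1:**
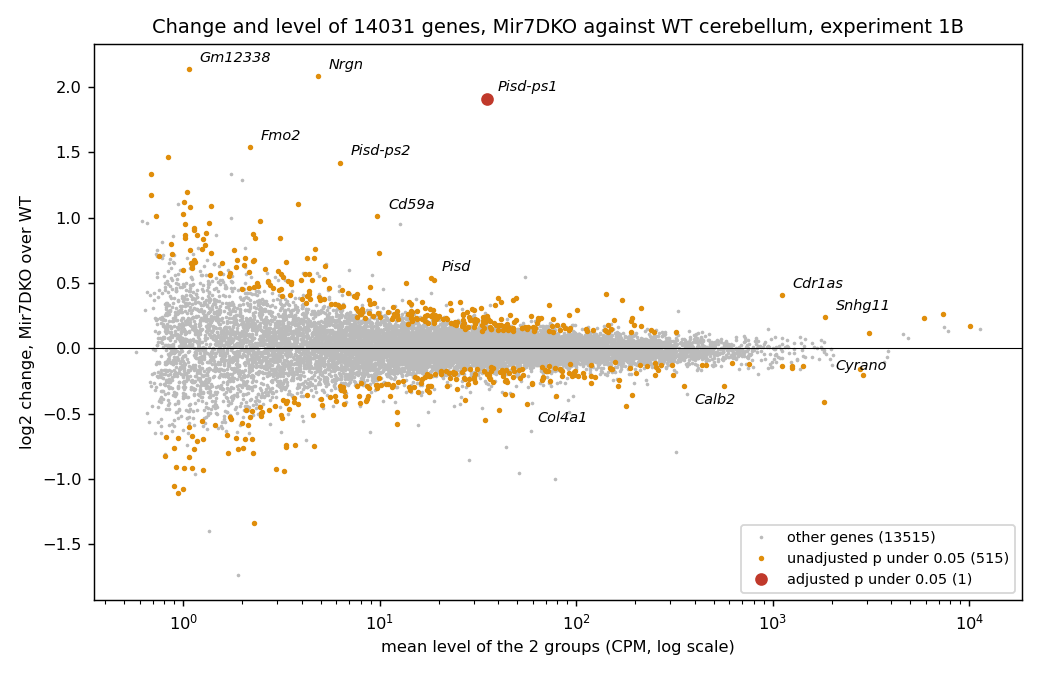
Each of the 14031 tested genes is a point: mean level of the 2 groups in CPM (x axis, log scale) and log2 change of Mir7DKO over WT (y axis). The 1 gene past the adjusted threshold is Pisd-ps1 at 1.91, the other genes at an unadjusted p under 0.05 are orange, and Cyrano and Cdr1as are at the high end of the levels.

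Pisd-ps1 (ENSMUSG00000082286, chr11:3125904-3131004 on the + strand, GRCm38) rose about 3.76-fold. It had 46.9, 42.6, 41.9 and 89.7 CPM in Mir7DKO libraries 1 to 4, against 17.1, 11.6, 15.5 and 14.1 CPM in WT libraries 1 to 4. Every Mir7DKO library was above every WT library, 3 of them close together and library 4 at a still higher level. The means were 55.3 ± 23.0 CPM in Mir7DKO and 14.6 ± 2.33 CPM in WT cerebellum (SD, n = 4 each), and the log2 change was 1.91 (SE 0.24, edgeR quasi-likelihood test with Benjamini-Hochberg adjustment, adjusted p = 0.0471). Without Mir7DKO library 4 the log2 change was 1.58, and the gene passed with an adjusted p of 0.000231 in the same edgeR test. The call was lost when any 1 WT library, Mir7DKO library 1 or Mir7DKO library 3 was left out, with log2 changes of 1.82 to 2.03 and edgeR adjusted p of 0.0662 to 0.376.

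The other copies of the family moved the same way without passing the test. Pisd-ps2, a second transcribed pseudogene (chr17:3076578-3084183, - strand), had 8.37, 6.96, 6.21 and 15.3 CPM in Mir7DKO libraries, against 4.48, 3.74, 2.09 and 3.17 CPM in WT libraries. Pisd itself (chr5:32736301-32785646, - strand), which encodes the mitochondrial enzyme that turns phosphatidylserine into phosphatidylethanolamine, had 19.4, 20.1, 19.1 and 27.1 CPM in Mir7DKO libraries, against 13.96, 16.8, 13.6 and 14.9 CPM in WT libraries. Neither gene's groups overlapped, and Mir7DKO library 4 was the highest of all 8 for the 3 copies. The log2 changes were 1.42 (SE 0.30) for Pisd-ps2 and 0.53 (SE 0.12) for Pisd, both at an unadjusted p under 0.05 and at an adjusted p of 1.00 (edgeR, Benjamini-Hochberg adjustment). Of the 1768 40-base windows in the Pisd-ps1 transcripts, 260 (14.7%) also occur in Pisd and 190 (10.7%) in Pisd-ps2. No source used here says how reads that match several copies were counted, so the split among the 3 is uncertain.

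The genes next to these copies had small values. Log2 changes were -0.09 for Sfi1, -0.03 for Eif4enif1 and -0.03 for Drg1 beside Pisd-ps1, and -0.10 for Scaf8 beside Pisd-ps2, none at an unadjusted p under 0.05 (chosen after their values were seen). Of 11 tested genes in the list of Pisd copies and phosphatidylethanolamine synthesis, 8 were above 0 and 3 below, 1 was called, and the 3 copies were the only ones at an unadjusted p under 0.05. The list's median was 0.04, against 0.00 for all genes. The study's own calls led to the inclusion of the copies in this list.

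The Pisd-ps1 difference did not recur in experiment 2. There Pisd-ps1 had 52.2, 40.1 and 40.7 CPM in 3 Mir7DKO libraries, against 89.7, 93.1, 34.7 and 35.0 CPM in 4 WT libraries, with a log2 change of -0.49 (SE 0.24, adjusted p = 0.743 by edgeR with Benjamini-Hochberg adjustment). All 4 of those WT libraries were above the 4 WT libraries of experiment 1B, although the tables were scaled separately. The log2 change was 2.402 larger in experiment 1B than in experiment 2, a difference that did not pass (SE 0.447, adjusted p = 0.348 by edgeR with Benjamini-Hochberg adjustment over 14532 genes). In experiment 1B the Cyrano knockout libraries (CyrKO), which the authors compared with the same 4 WT libraries, had 13.2, 13.5, 15.7 and 59.3 CPM. The first 3 of these were at the WT level, and CyrKO library 4 was among the Mir7DKO values.

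Pisd-ps2 was highest in the same 2 WT libraries of experiment 2 and in CyrKO library 4, with 7.73, 4.84 and 6.29 CPM in Mir7DKO and 10.6, 14.8, 6.02 and 5.51 CPM in WT of experiment 2, and 2.85, 3.28, 3.47 and 9.41 CPM in CyrKO. A pseudogene also on chromosome 11, Gm12338 (named after its values were seen), had 1.70, 1.87, 1.16 and 2.29 CPM in Mir7DKO libraries, against 0.304, 0.320, 0.314 and 0.577 CPM in WT libraries. Its groups did not overlap, and its log2 change of 2.14 (SE 0.34) did not pass (adjusted p = 0.170, edgeR with Benjamini-Hochberg adjustment). In experiment 2 it had 0.570, 1.80 and 1.93 CPM in Mir7DKO and 2.04, 1.16, 1.95 and 2.003 CPM in WT, which overlap. All 153 of its 40-base windows occur in Cox7c, which encodes a subunit of cytochrome c oxidase and had a log2 change of 0.01, so its counts are uncertain.

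Cd59a was higher in both experiments. It encodes a membrane-anchored protein that blocks assembly of the complement membrane attack complex (chr2:104095801-104115354, + strand). Levels were 12.8, 12.3, 16.6 and 10.0 CPM in Mir7DKO libraries, against 6.07, 6.30, 6.80 and 6.56 CPM in WT libraries. The groups did not overlap, and the WT libraries were tightly grouped. The means were 12.9 ± 2.73 CPM in Mir7DKO and 6.43 ± 0.319 CPM in WT cerebellum (SD, n = 4 each), and the log2 change of 1.01 (SE 0.15) missed the threshold (adjusted p = 0.128, edgeR quasi-likelihood test with Benjamini-Hochberg adjustment), while the authors' deposited table gives an adjusted p of 0.000139.

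In experiment 2, Cd59a had 18.6, 14.8 and 16.0 CPM in Mir7DKO libraries, against 6.85, 6.29, 5.62 and 6.26 CPM in WT libraries. It rose there by a log2 change of 1.40 (SE 0.13, edgeR adjusted p = 2.79e-06 with Benjamini-Hochberg adjustment). With both experiments in 1 fit and the experiment as a block, it was the 1 gene of 14532 called (0.00688%), at 1.20 (SE 0.11, edgeR adjusted p = 6.51e-06 with Benjamini-Hochberg adjustment), and 0 genes were lower, with 423 higher (2.91%) and 459 lower (3.16%) at an unadjusted p under 0.05. The difference of -0.39 between the experiments did not pass (adjusted p = 0.999, edgeR with Benjamini-Hochberg adjustment). The CyrKO libraries, which share the WT libraries, had 7.05, 5.63, 6.35 and 5.23 CPM, within or near the WT range.

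The copy Cd59b had at most 0.636 CPM in any of the 8 libraries and was not tested. Of the 1811 40-base windows of Cd59a, 106 (5.85%) occur in Cd59b. The neighbouring gene Fbxo3, which encodes an F-box protein, had a log2 change of 0.00. The longest annotated 3′ UTR of Cd59a holds no miR-7 site longer than a 6mer. Of 13 tested complement genes and inhibitors, 9 were above 0 and 4 below, and Cd59a was the 1 at an unadjusted p under 0.05; the list's median was 0.05.

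**Figure D2:**
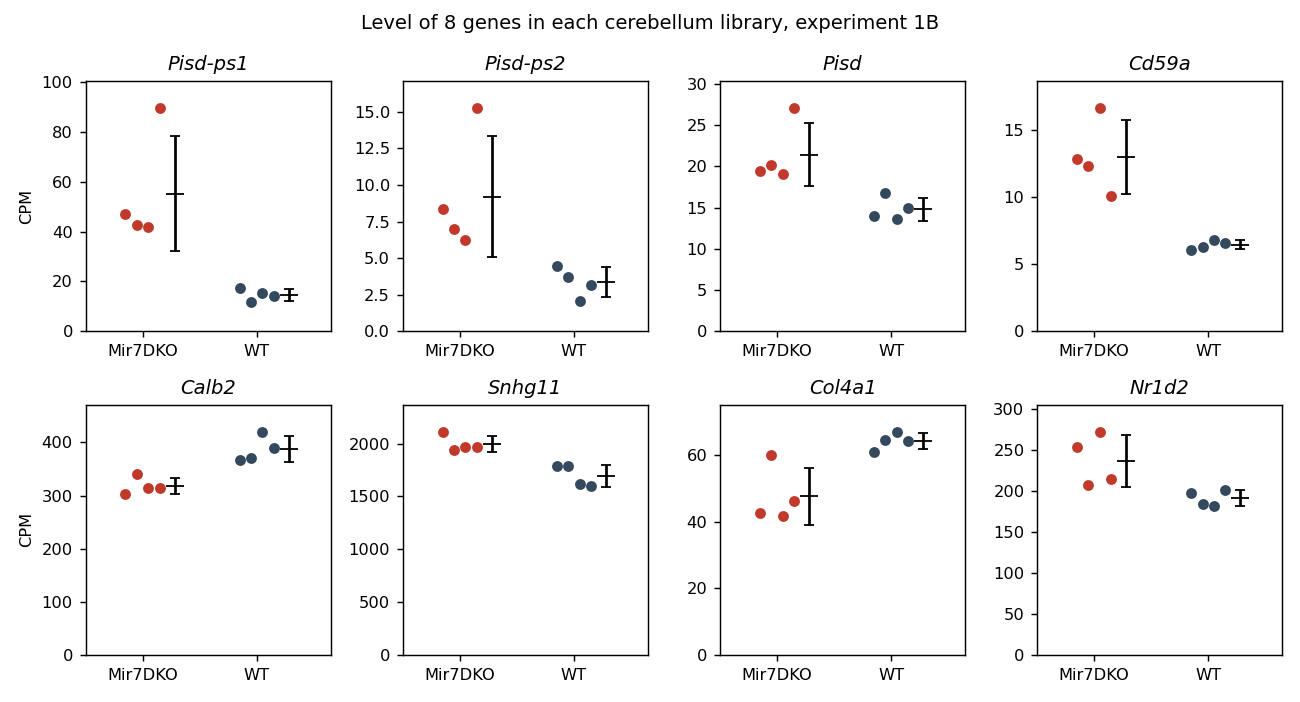
Levels in CPM (y axes, from 0) of 8 genes in Mir7DKO (red, left) and WT (grey, right) cerebellum, 1 point a library in the order 1 to 4, with the mean and SD as bars beside them. Mir7DKO library 4 is the highest for Pisd-ps1 at 89.7 CPM. The groups of all 8 genes are separate, but these genes were named for small p in the same libraries, which favours separation. Of all tested genes, 1.41% were separate with Mir7DKO higher and 1.13% with Mir7DKO lower.

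Among genes whose mean normalised count in the authors' table reached 50, those with the smallest p that were lower in Mir7DKO were led by Calb2, which encodes the calcium-binding protein calretinin of granule cells and unipolar brush cells. Calb2 had 303, 340.4, 314 and 314 CPM in Mir7DKO libraries, against 368, 371, 421 and 390.0 CPM in WT libraries. The groups did not overlap. The log2 change was -0.28 (SE 0.0589, adjusted p = 1.00 by edgeR with Benjamini-Hochberg adjustment), a difference of -17.9% that did not pass the adjusted threshold. In experiment 2 Calb2 had 272, 326 and 257 CPM in Mir7DKO libraries, against 353, 335, 349 and 338 CPM in WT libraries, again without overlap, at -0.27 (edgeR adjusted p = 0.100, Benjamini-Hochberg adjustment). Over both experiments the change was -0.28 (SE 0.0465, adjusted p = 0.0533 by edgeR with Benjamini-Hochberg adjustment). Of 15 granule cell markers, Calb2 included, 5 were above 0 and 10 below, with a median of -0.03, and Calb2 was the 1 at an unadjusted p under 0.05. CyrKO libraries had 334, 399, 316 and 334 CPM against the same WT libraries.

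The 7 other lower genes of this rule had log2 changes of -0.34 to -0.51. Col4a1, a collagen chain of basement membranes, had 42.5, 59.9, 41.6 and 46.2 CPM in Mir7DKO libraries, against 61.0, 64.5, 67.0 and 64.1 CPM in WT libraries; 3 Mir7DKO libraries were well under the WT range and library 2 just under it. Its log2 change was -0.43 (SE 0.10), against 0.12 in experiment 2. Phpt1, a phosphohistidine phosphatase gene, was at -0.34, and Tst, which encodes the mitochondrial sulfurtransferase rhodanese, at -0.34. Eps8, an actin regulator, was at -0.44, the sorting nexin gene Snx22 at -0.51, the gap junction gene Gjc1 at -0.42 and the mTORC1 inhibitor gene Ddit4 at -0.39. In experiment 2 all of these but Col4a1 were below 0, at -0.06 to -0.20, none at an unadjusted p under 0.05.

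On the higher side, after Pisd-ps1, Cd59a, Pisd-ps2 and Pisd, the rule gave Marveld2, Snhg11, Gm15487 and Ogn. Snhg11, a neuronal host gene of small nucleolar RNAs, had 2115, 1943, 1972 and 1964 CPM in Mir7DKO libraries, against 1787, 1785, 1617 and 1595 CPM in WT libraries. The groups did not overlap. Its log2 change was 0.24 (SE 0.0588), and 0.23 in experiment 2 (SE 0.0615), where 2 of the 3 Mir7DKO libraries were above all WT libraries. Over both experiments its adjusted p was 0.16 (edgeR, Benjamini-Hochberg adjustment). Marveld2, which encodes the tight junction protein tricellulin, was at 0.52, with 0.31 in experiment 2 (SE 0.11). The proteoglycan gene Ogn was at 0.50 and 0.23, and Gm15487 at 0.76 and -0.44.

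With the same minimum of 50 counts and an unadjusted p under 0.05, the largest lower values were those of Mir3097 (-0.75), the transcription factor gene Klf12 (-0.58), the cell cycle inhibitor gene Cdkn1a (-0.55) and Snx22 (-0.51). The largest higher value by fitted change was that of Nrgn, which encodes the calmodulin-binding postsynaptic protein neurogranin, and it came from 1 library. Nrgn had 1.59, 26.7, 1.44 and 1.47 CPM in Mir7DKO libraries, against 2.58, 1.28, 2.20 and 1.59 CPM in WT libraries. Mir7DKO library 2 alone was high. The log2 change of 2.08 (SE 0.93, at an unadjusted p under 0.05) became -0.36 without that library. The same library had the highest summed level of 7 midbrain markers, 59.2 CPM against 14.6 to 19.5 CPM in the other 7 libraries. Its forebrain markers summed to 285 CPM, within the 270 to 361 CPM of the other 7 libraries. The part of other brain regions in the Nrgn value was not tested.

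Experiment 2 gives an independent reading of the genes found in experiment 1B, since no library is shared. Of 286 genes higher at an unadjusted p under 0.05 in experiment 1B and tested in both, 166 (58.0%) were also above 0 in experiment 2, where 49.1% of all genes were. At an unadjusted p under 0.05 in experiment 2, 23 of them were higher (8.04%), against 3.82% of the 13893 genes tested in both, and 5 were lower. Of 225 genes lower in experiment 1B, 144 (64.0%) were below 0 in experiment 2, against 50.9% of all genes, and 19 (8.44%) were lower at an unadjusted p under 0.05, against 2.89% of all genes. The median change in experiment 2 was 0.02 for the first set and -0.05 for the second, compared with 0.28 and -0.27 in experiment 1B. No gene of 14532 differed between the experiments after adjustment (edgeR, 0%), with 556 at an unadjusted p under 0.05 (3.83%).

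Several genes with an unadjusted p under 0.05 in both experiments are named here after their values were seen. Slc5a5, the sodium iodide symporter gene, had 2.86, 3.28, 3.47 and 3.43 CPM in Mir7DKO libraries, against 2.12, 1.17, 1.67 and 1.59 CPM in WT libraries, with log2 changes of 0.97 and 0.70 in experiments 1B and 2. Its groups did not overlap in experiment 1B. Chchd10, which encodes a mitochondrial intermembrane protein, was at 0.25 and 0.22, the natriuretic peptide clearance receptor gene Npr3 at 0.85 and 1.45, and Necab3, a calcium-binding protein gene, at -0.35 and -0.35. In the opposite direction, the flavin monooxygenase gene Fmo2 was at 1.54 and -0.87; the difference of 2.41 between the experiments did not pass (edgeR adjusted p = 0.348 with Benjamini-Hochberg adjustment).

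Experiment 2 called 22 higher genes (0.156%) and 6 lower ones (0.0424%) of 14146, and its leading gene after Cd59a was divided in experiment 1B. Wdfy1, which encodes an endosomal protein, had 48.6, 50.8, 31.6 and 31.0 CPM in Mir7DKO libraries, against 35.8, 30.3, 31.2 and 30.6 CPM in WT libraries. Mir7DKO libraries 1 and 2 were at the higher level and libraries 3 and 4 at the WT level. Its log2 change was 0.34 (SE 0.15). In experiment 2 it had 50.4, 50.4 and 51.1 CPM in Mir7DKO libraries, against 26.5, 31.3, 26.2 and 33.4 CPM in WT libraries, with all 3 Mir7DKO libraries at the upper level (edgeR adjusted p = 1.77e-05, Benjamini-Hochberg adjustment). Trim37, a ubiquitin ligase gene, was at -0.01 in experiment 1B and -0.33 in experiment 2.

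**Figure D3:**
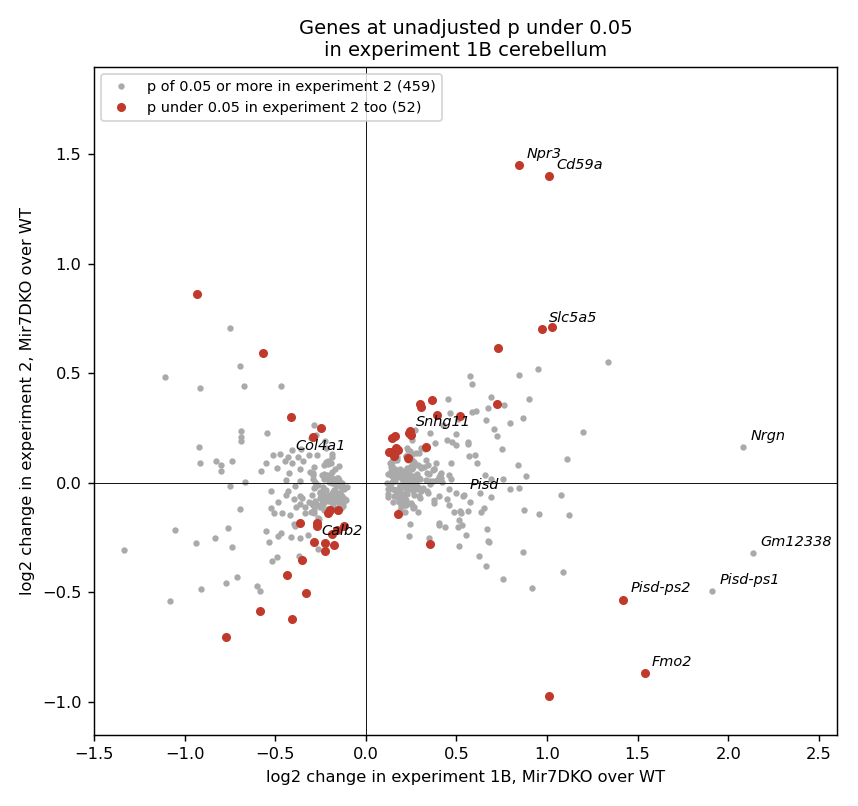
Each gene at an unadjusted p under 0.05 in experiment 1B that was also tested in experiment 2 is a point, with its log2 change of Mir7DKO over WT in experiment 1B (x axis) and experiment 2 (y axis); red points are also under 0.05 in experiment 2. Cd59a and Npr3 are high on both axes, while Pisd-ps1, Pisd-ps2 and Fmo2 are high in experiment 1B and below 0 in experiment 2.

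Neither noncoding partner of miR-7 passed the adjusted threshold, with Cyrano near its WT level and Cdr1as above it. Cyrano (1700020I14Rik, chr2:119594297-119607502, + strand) had 2083, 1801, 1803 and 1571 CPM in Mir7DKO libraries, against 1955, 1970.0, 1885 and 1588 CPM in WT libraries. The groups overlapped, at a log2 change of -0.03 (SE 0.0900). Cdr1as had 1019.7, 1276, 1636 and 1122 CPM in Mir7DKO libraries, against 649, 989, 1020.3 and 1159 CPM in WT libraries. Mir7DKO library 3 was the highest and WT library 1 the lowest, and the groups overlapped, at 0.41 (SE 0.17, at an unadjusted p under 0.05 and an adjusted p of 1.00 by edgeR with Benjamini-Hochberg adjustment). In experiment 2 the Cdr1as value was 0.03. Against the same WT libraries, the CyrKO values were -4.53 for Cyrano and -3.02 for Cdr1as. C230004F18Rik, annotated at the Cdr1as locus, was at 0.05, and the feature Cdr1 had at most 2 counts in any library. A circular RNA has no polyA tail, so these libraries count Cdr1as only as far as it escapes polyA selection.

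Genes around the deleted microRNA genes were not called. Hnrnpk, the host gene of Mir7-1, which encodes an RNA-binding protein, had 211, 230.2, 227 and 223 CPM in Mir7DKO libraries, against 214, 218, 221 and 194 CPM in WT libraries. The groups overlapped, at 0.08 (SE 0.0560). Of 11 tested genes within 500 kb of Mir7-1 (chr13:58392779-58392886, - strand), 0 had an unadjusted edgeR p under 0.05 (and 0 an adjusted one), with a median of -0.05 and a range of -0.17 to 0.35. Of 30 within 500 kb of Mir7b (chr17:56242988-56243098, + strand), 1 did, the ribosomal protein gene Rpl36 at -0.60 (SE 0.25), with a median of -0.03 and a range of -0.60 to 0.58. Over all genes, 2.06% were higher and 1.62% lower at that level. Rpl36 was weakly expressed, with a mean normalised count of 12.6 from the authors. Near Mir7-1, 2 genes were above 0, and near Mir7b 11 were, where 50.3% of all genes were.

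Genes with miR-7 sites had the same median log2 change as genes without them, to 2 decimals. At the same minimum of 50 counts, 514 genes had an 8mer as the best site in their longest annotated 3′ UTR, which is 4.63% of genes with such a UTR, and their median log2 change was 0.00. The medians were also 0.00 for 1208 genes with a 7mer-m8 (10.9%), 1433 with a 7mer-A1 (12.9%), 2371 with a 6mer (21.3%) and 5582 with no site (50.3%). At an unadjusted p under 0.05, 14 genes with an 8mer were higher (2.72%) and 14 lower (2.72%), against 1.63% higher and 1.79% lower of those with no site. The 219 genes with 3 or more 8mer or 7mer sites had a median of -0.02. In experiment 2 the medians were 0.00 for 8mer genes and -0.01 for genes with no site. At an unadjusted edgeR p under 0.05 there, 3.52% of 8mer, 5.05% of 7mer-m8 and 3.99% of 7mer-A1 genes were higher. The share was 3.20% with no site. Lower were 3.32%, 2.90% and 2.73% of these 3 classes, against 3.05% with no site. Of genes with 3 or more 8mer or 7mer sites, 5.94% were higher and 2.74% lower.

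**Figure D4:**
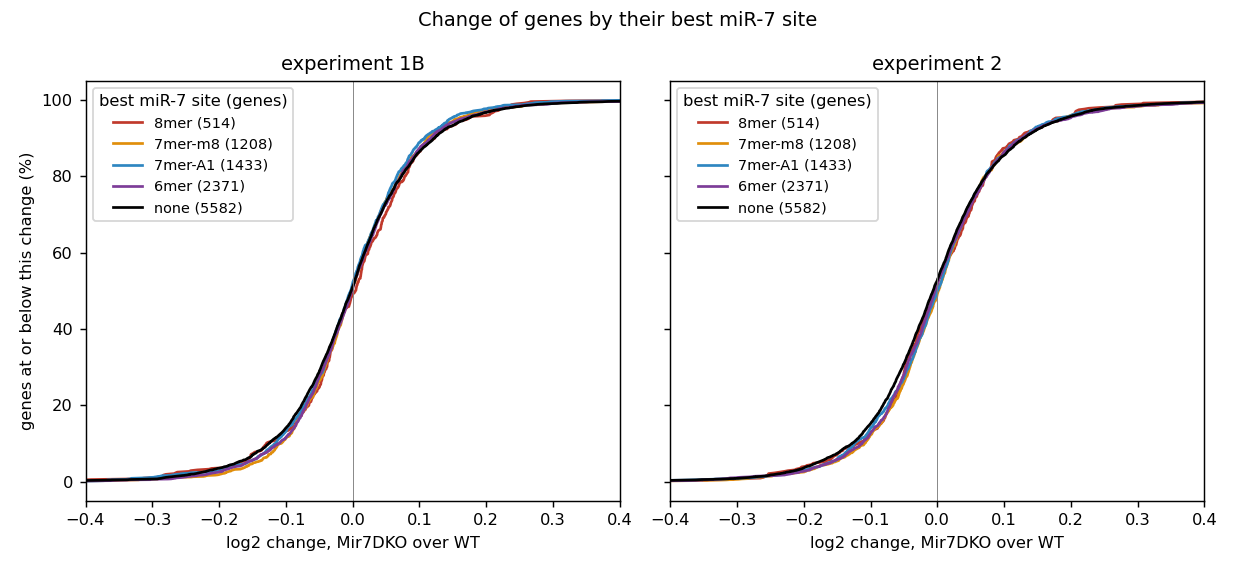
Cumulative share of genes (y axis, percent) at or below each log2 change of Mir7DKO over WT (x axis, shown from -0.4 to 0.4) in experiment 1B (left) and experiment 2 (right), by the best miR-7 site in the 3′ UTR. The 5 curves lie on each other, with the 514 8mer genes and the 5582 genes with no site both centred at 0.00 in experiment 1B.

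The 6 8mer genes with the smallest p did not share a direction. Snhg11 was above 0, and Gjc1 (-0.42), Ddit4 (-0.39), Lysmd4 (-0.23), Serpinb2 (-0.67) and Cacna1e (-0.29) were below it. Gjc1, which encodes connexin 45, had 6.78, 5.89, 7.08 and 7.59 CPM in Mir7DKO libraries, against 9.64, 8.22, 9.42 and 9.09 CPM in WT libraries, with no overlap. Ddit4 had 25.9, 23.8, 21.7 and 22.2 CPM in Mir7DKO libraries, against 32.7, 26.8, 36.6 and 26.4 CPM in WT libraries, also with no overlap and lower in Mir7DKO.

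Genes reported as miR-7 targets in other studies lay on both sides of 0. Of 35 listed, 34 were tested, with 15 above 0 and 19 below, 0 at an unadjusted p under 0.05 in the higher direction and 1 in the lower, Ptk2, which encodes focal adhesion kinase, at -0.13 (SE 0.0602). These counts were 3 higher and 0 lower without WT library 4, 0 higher and 2 lower without Mir7DKO library 1, 2 higher and 2 lower without both libraries numbered 4, and 2 higher and 0 lower in experiment 2. A 3′ UTR with an 8mer or 7mer was present in 32 of the 35, of which 31 were tested at a median of -0.02, from -0.15 to 0.32. Mtor, which encodes a kinase of growth signalling, had 102, 139, 143 and 133 CPM in Mir7DKO libraries, against 142, 147, 138 and 148 CPM in WT libraries. The groups overlapped, at -0.15 (SE 0.0900). The palmitoyltransferase gene Zdhhc9 was at -0.13 and the mitochondrial channel gene Vdac1 at -0.08. The highest was Basp1, a growth cone protein gene, at 0.32, where Mir7DKO library 2 had 18.7 CPM and the other 7 libraries 7.21 to 9.42 CPM. Of 24 genes of microRNA processing, tailing and decay, 12 were above 0 and 12 below, 0 were at an unadjusted edgeR p under 0.05 (3 lower without Mir7DKO library 1), and the median was -0.01.

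No gene list held a called member apart from the Pisd list. Several had larger shares of members at an unadjusted p under 0.05 than all genes, of which 2.06% were higher and 1.62% lower. The lists were not tested and were chosen with earlier results of these data known. Their counts, here and below, therefore do not show that a list differs from all genes. Of 15 circadian clock genes, 6 were higher and 0 lower, with a median of 0.22: Nr1d2 (0.31) and Nr1d1 (0.41), which encode the REV-ERB repressors, Hlf (0.22), Bhlhe41 (0.37), Per3 (0.33) and Per2 (0.38). Nr1d2 had 254, 207, 273 and 215 CPM in Mir7DKO libraries, against 198, 185, 182 and 202 CPM in WT libraries. Its groups did not overlap. The clock output gene Dbp had 73.4, 40.9, 67.2 and 81.0 CPM in Mir7DKO libraries, against 34.1, 33.5, 35.6 and 74.6 CPM in WT libraries. WT library 4 was at the upper Mir7DKO level and Mir7DKO library 2 near the other WT libraries. Arntl, whose product BMAL1 peaks in antiphase to these genes, was at -0.29 (SE 0.14), short of an unadjusted p under 0.05. Without both libraries numbered 4, 9 clock genes were higher and 3 lower at an unadjusted edgeR p under 0.05, without WT library 4 alone 8 and 3, and without Mir7DKO library 2 7 and 2. Each other omission of 1 library lowered the count. It was 4 higher and 0 lower without Mir7DKO library 1 or 3 or WT library 1 or 3. It was 5 higher and 0 lower without Mir7DKO library 4 or WT library 2. In experiment 2 the list's median was 0.02, with 0 higher and 1 lower.

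Oligodendrocyte genes were lower on balance. Of 21, 19 were below 0, 6 were lower and 0 higher at an unadjusted p under 0.05, and the median was -0.15; the 6 included Tspan2 (-0.20) and the myelin genes Cnp (-0.21) and Mag (-0.24). Cnp, which encodes a phosphodiesterase of myelin, had 301, 325, 247 and 282 CPM in Mir7DKO libraries, against 335, 338, 311 and 348 CPM in WT libraries. Mir7DKO libraries 1, 3 and 4 were below all WT libraries and library 2 was within their range. Without both libraries numbered 4, 1 of the 21 was lower and 1 higher at an unadjusted p under 0.05, without Mir7DKO library 2 13 were lower, without Mir7DKO library 3 1 was, without Mir7DKO library 4 or WT library 2 2 were, and without WT library 1 3 were. In experiment 2 the median was -0.07. In whole tissue, fewer cells of a type and less RNA per cell cannot be told apart.

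Basement membrane genes were likewise lower in experiment 1B, with 12 of 15 below 0, 5 lower and 0 higher at an unadjusted p under 0.05 and a median of -0.12. The 5 were the collagen IV genes Col4a1 and Col4a2 (-0.35), the nidogen gene Nid1 (-0.27), the laminin gene Lamc1 (-0.23) and Sparc (-0.12). Experiment 2 had a median of 0.13, with 7 higher and 1 lower. Of 16 endothelial markers 10 were below 0, with a median of -0.05, and of 10 mural markers 7 were below 0, with a median of -0.02. In each list 0 had an unadjusted edgeR p under 0.05 (and 0 an adjusted one). At that unadjusted level 2 endothelial markers were lower with the replicate block, with no low-count filter or without WT library 1. Leaving out 1 other library gave 0 to 1 lower and 0 to 1 higher endothelial markers. In experiment 2, 13 of the 16 endothelial markers were above 0, with a median of 0.06. The part of vascular cells in the basement membrane values was not tested.

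Mitochondrially encoded mRNAs were above 0 in 7 of 7 tested cases, 3 of them higher at an unadjusted p under 0.05, with a median of 0.17 and of 0.07 in experiment 2. mt-Nd5, a subunit of respiratory complex I, had 7225, 7875, 8075 and 8775 CPM in Mir7DKO libraries, against 6614, 6951, 6984 and 6124 CPM in WT libraries, without overlap. The count of 3 became 7 without Mir7DKO library 1 and 6 without WT library 3. It fell to 2 without Mir7DKO library 2, 3 or 4 and without WT library 1 or 2. The count was also 2 without both libraries numbered 4. The other 6 of the 13 were under the count filter. The 53 nuclear genes of oxidative phosphorylation had a median of -0.02, with 0 at an unadjusted edgeR p under 0.05 (and 0 at an adjusted one), but 6 lower at that level without WT library 4 and 5 without both libraries numbered 4. Of 51 cytosolic ribosomal protein genes, 9 were lower and 2 higher, with a median of -0.05, for example Rpl32 (-0.29) and Rps4x (-0.23). These counts were 4 lower and 0 higher without Mir7DKO library 4, 4 lower and 1 higher without WT library 3, 5 lower and 2 higher without Mir7DKO library 1, 5 lower and 0 higher without Mir7DKO library 3, and 5 lower and 0 higher with DESeq2. Many ribosomal protein genes have processed copies in the genome, so their counts are uncertain.

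Neuronal lists were near the median of all genes. Purkinje cell genes had a median of 0.00 with 1 of 16 higher at an unadjusted p under 0.05, the transcription factor gene Foxp2 at 0.31, and cerebellar interneuron genes a median of 0.02 with 0 of 12 at an unadjusted edgeR p under 0.05 (and 0 at an adjusted one). Glutamate and GABA receptor genes had a median of 0.00 over 29 genes, with Grin2d higher (0.35), and synaptic vesicle release genes -0.01 over 25, with Snap25 higher (0.12) and Syt2 lower (-0.11). Of 20 cholesterol synthesis genes, Sqle (-0.25) and Hmgcs1 (-0.13) were lower, and of 17 interferon response genes Irf7 (-0.77), all at an unadjusted p under 0.05. Astrocyte and Bergmann glia genes had Fabp7 lower (-0.47) and Sox9 higher (0.33) of 15, and microglia genes Tmem119 lower (-0.36) of 15, at the same unadjusted threshold. Of 26 genes that respond to unfolded proteins or integrated stress, 1 was higher, the chaperone gene Dnajb9 (0.17), with a median of -0.07, and without Mir7DKO library 2 there were 4 lower ones. In the Purkinje cell, interneuron, receptor, vesicle release, astrocyte, microglia, cholesterol and interferon lists just given, leaving out 1 library gave 0 to 2 higher and 0 to 3 lower genes at an unadjusted p under 0.05.

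Markers of choroid plexus and blood were high in single libraries of either genotype. The summed level of 17 choroid plexus markers was 198, 203, 183 and 714 CPM in Mir7DKO libraries, against 224, 913, 193 and 211 CPM in WT libraries. Mir7DKO library 4 and WT library 2 were high. Erythrocyte genes summed to 206, 387, 604 and 369.9 CPM in Mir7DKO libraries, against 239, 416, 330.1 and 1783 CPM in WT libraries, with WT library 4 alone high. The choroid plexus genes Ttr and Kl, among those called in experiment 2, were at -0.26 and 0.01 (SE 0.98) in experiment 1B, each under 1 SE. In experiment 2 all 11 tested choroid plexus markers were above 0, with a median log2 change of 2.59. Of these, 10 were higher at an unadjusted edgeR p under 0.05, where 3.82% of genes tested in both experiments were. The part of these tissues in other results, the calls of experiment 2 included, was not tested.

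**Figure D5:**
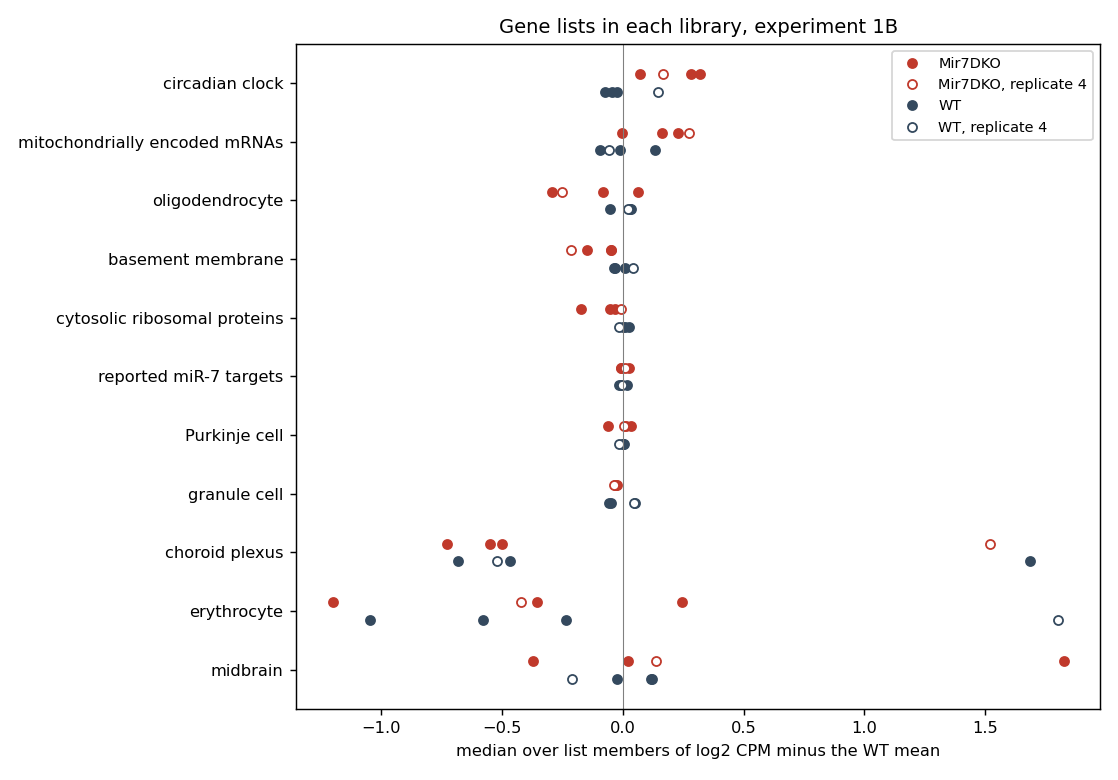
For 11 gene lists (rows), the median over members of log2 CPM minus the WT mean (x axis) in each Mir7DKO library (red, upper) and WT library (grey, lower), with replicate 4 as open circles. Clock genes are highest in Mir7DKO libraries 1 and 3 with WT library 4 among the Mir7DKO values, and choroid plexus, erythrocyte and midbrain markers are each high in 1 or 2 libraries.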

How the data were processed

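Raw read counts per gene were deposited by the authors. In the same table they deposited normalised counts and their mean (a signal, counts over size factors), log2 fold changes with standard errors, a test score, p-values and adjusted p-values. STAR 2.4, HTSeq 0.6.1p1 and DESeq2 1.10 and the builds mm10 and GRCm38 are named, per the submitters' processing notes; the annotation release, the strand setting and the handling of multiply matching reads are named by no source used here. The deposited counts were filtered with filterByExpr at a minimum count of 10, scaled by TMM and tested with edgeR 4.0.16 (F-test by quasi-likelihood, threshold 0.05 after Benjamini-Hochberg adjustment) in R 4.3.3, on the 4 Mir7DKO and 4 WT libraries alone. The same fit was made for experiment 2, for both experiments with the experiment as a block, and for the interaction. The scripts were tested on simulated data. The 4 replicate numbers were not taken as pairs in the main fit. Deviations of same-numbered libraries correlated at 0.243, 0.0516, -0.0128 and 0.431, against -0.338 to 0.209 for differently numbered ones. Whether the numbers pair the libraries was not tested. Alternatives were DESeq2 1.42.0, limma 3.58.1 (voom), other scalings and filters, a replicate block, and each library left out. The members and gene lists were chosen with earlier results of these data known, and lists were given counts and medians but no test. Named genes were the network RNAs, the called genes and their copies, the 8 smallest p and 4 largest changes in each direction with an authors' mean normalised count of 50 or more, up to 3 genes of each list, the 6 8mer genes of smallest p, reported targets, and leading genes of experiment 2; others are said to be chosen after their values were seen. A few genes that these rules name are not reported here. GENCODE M21 gave 3′ UTRs; 13132 of the 14031 IDs had one.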

Additional observations from a re-analysis of the deposited data

Results flagged for a closer look

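Single libraries far from the other 3 of their group were looked for in 242 groups of 4. The measure was the gap to the nearest library over the whole range (Dixon's 95% limit), and 23 passed (9.504%). The limit passes about 1 in 20 of independent, normally distributed groups. These groups belong to the named genes, many of them named for their values in these data, so the share cannot show an excess over chance. Mir7DKO library 4 was far above its group for Pisd-ps1 (89.7 CPM), Pisd (27.1 CPM), Vdac1 (294 CPM), Enpp2 (356 CPM), Ttr (255 CPM) and Kl (17.9 CPM). WT library 2 was far above its group for the last 3 of these, with 488 CPM of Enpp2, 314 CPM of Ttr and 20.7 CPM of Kl, all of them choroid plexus genes. WT library 4 was apart for Gm12338 (0.577 CPM), Nr1d1 (169.6 CPM), Dbp (74.6 CPM) and Keap1 (47.7 CPM), all above, and for Cox7c (3.39 CPM), below. Mir7DKO library 2 was above its group for Nrgn (26.7 CPM), Basp1 (18.7 CPM), Snx22 (4.35 CPM) and Col4a2 (47.4 CPM). Mir7DKO library 1 was above for Snhg11 (2115 CPM) and below for Ogn (12.5 CPM), and Mir7DKO library 3 was below for Cplx1 (385 CPM). WT library 1 was above for Wdfy1 (35.8 CPM) and WT library 3 below for Mog (77.7 CPM).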

How the results depend on the processing

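The 1 call of experiment 1B became 2 with a replicate block (Pisd-ps1 and Cd59a), 3 with DESeq2, 4 with no low-count filter, and 0 with limma voom or at the 50-count minimum, and it was 1 with RLE or upper quartile scaling. With the CyrKO libraries in the fit the 1 call was Cd59a in place of Pisd-ps1, whose adjusted p was then 1.00 (edgeR, Benjamini-Hochberg adjustment). Leaving out 1 library gave 0 to 2 calls; without Mir7DKO library 2 the second was Col4a1. Without both libraries numbered 4, an alternative chosen after seeing the data, it was Pisd-ps1 alone. The log2 change of Pisd-ps1 stayed between 1.55 and 2.03 in these alternatives. The replicate block changed no other call. With it, 402 genes were higher and 398 lower at an unadjusted edgeR p under 0.05, against 289 and 227 in the main fit. The 28 calls of experiment 2 became 184 with no low-count filter, 3 with limma voom and 3 to 70 with 1 library left out. The 0 genes that differed between the experiments became 19 with no low-count filter and 0 to 1 with 1 library left out. For both experiments together, 1 call became 14 with DESeq2, 22 with no low-count filter, 2 with RLE scaling or limma voom, and 1 to 6 with 1 library left out.

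Leaving out 1 library gave log2 changes of -0.36 to 2.44 for Nrgn, -0.12 to 0.45 for Basp1, -0.67 to 0.27 for Enpp2, -0.21 to 0.17 for C230004F18Rik, -5.08 to 4.79 for Ttr and -1.70 to 2.14 for Kl, which was -2.03 without both libraries numbered 4. The erythrocyte median of -0.82 was -1.11 to 0.25 with 1 library left out and 0.26 without both libraries numbered 4, where the choroid plexus median of -0.13 was -1.48. The median of reported targets was -0.0232 to 0.0089 with 1 library left out and 0.0065 without both numbered 4. The unipolar brush cell median of -0.05 was -0.17 with the CyrKO libraries, -0.17 at that minimum in the fit or in the members, and -0.16 without both numbered 4; the ependymal median of 0.24 was -0.17 at that minimum in the fit or in the members. With 1 library left out, medians were -0.0455 to 4.48e-04 for astrocytes, -0.10 to 0.0233 for microglia and -0.0247 to -0.0107 for nuclear oxidative phosphorylation. The causes were not tested. Of the other values, 2056 values of single genes kept their direction and their side of the threshold, apart from 59 signs of values under 1 SE. The other 752 values were medians and counts. Each such median moved by less than the spread between libraries, and each such count of calls by at most 1.5-fold. A median could still change sign, as that of immediate early genes did, from 0.12 to -0.17 without WT library 4. At these depths, levels under 1 CPM rest on few reads.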

Other observations

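Other cell types and responses gave few genes at an unadjusted edgeR p under 0.05. Oligodendrocyte precursor genes had a median log2 change of -0.04 over 7 genes, ependymal genes 0.24 over 5, forebrain genes -0.07 over 6, brainstem and deep nuclei genes -0.03 over 5, immediate early genes 0.12 over 19 and heat shock genes -0.03 over 11, with 0 at an unadjusted p under 0.05 and 0 past the adjusted threshold in each. Immediate early genes, induced by neuronal firing and handling, summed to 585, 528, 433 and 338 CPM in Mir7DKO libraries, against 325, 479, 776 and 240.0 CPM in WT libraries; WT library 3 was the highest and WT library 4 the lowest. Meningeal fibroblast genes had a median of 0.05 over 12 genes with Ogn higher. Of 12 glucocorticoid-induced genes, Ddit4 and Cdkn1a were lower, with a median of -0.06, and in experiment 2 the median was -0.18.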
